A study of Rattus norvegicus with 6 samples.

Results

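The enzymes that make and inactivate estradiol were examined in rat mammary tumors as a set of 10 genes. The set was chosen by gene symbol and comprised Hsd17b1, Hsd17b2, Hsd17b4, Hsd17b7, Hsd17b8, Hsd17b10, Hsd17b11, Hsd17b12, Cyp19a1 and Sult1e1. Each of the 10 symbols stood on a row of the RNA-seq count table, which held 26195 named rows. All 10 had at least 1 read in the 6 tumors together. Of these, 6 passed the filter on low counts and were tested between age groups, while Hsd17b1, Hsd17b2, Cyp19a1 and Sult1e1 did not pass it.

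The tumors arose in female F344 rats that received medroxyprogesterone acetate (MPA), a progestin, as a 50 mg pellet released over 90 days, and 7,12-dimethylbenz[a]anthracene (DMBA), a carcinogen, by gavage at 65 mg/kg. Rats of the older group were 21 to 23 months old at DMBA, and rats of the younger group were 4 months old. Each group had 3 tumors (102, 107 and 116 from older rats, and 157, 158 and 167 from younger rats), each sequenced as 1 library of bulk RNA. Both groups received MPA and DMBA, and no untreated mammary tissue was analysed here. The older tumors were those with enough frozen tissue, whereas the younger tumors were all that had formed. The study counts these tumors as coming from separate rats, so p-values measure the spread between animals with 1 tumor each.

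Estrogens act through the estrogen receptor, and estradiol (E2) binds it far more strongly than estrone (E1). Aromatase forms estrogens from androgens, and the 17β-hydroxysteroid dehydrogenases (HSD17B) interconvert E1 and E2, some mainly as reductases toward E2 and others mainly as oxidases toward E1. Several HSD17B enzymes have a main duty elsewhere, in cholesterol synthesis, fatty acid breakdown or elongation, or mitochondrial RNA processing, and estrogen sulfotransferase turns E2 into a sulfate that does not bind the receptor.

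Between 3508571 and 6525830 reads were counted per tumor, and 1 read of a named gene corresponded to 0.176 to 0.343 CPM, the count of a gene scaled to a common library total with edgeR's trimmed mean of M-values (TMM). A count of 3 reads, taken here as the floor that a gene had to exceed to be called detected, corresponded to 0.528 to 1.03 CPM. All 8 epithelial markers lay above this floor in every tumor, and their summed level was 1415 to 1541 CPM in older tumors and 1826 to 2089 CPM in younger tumors. Milk protein genes ranged more widely, from 5608 CPM in tumor 167 to 169920 CPM in tumor 158. Since each library is bulk RNA, fewer cells of a type and less RNA per cell cannot be told apart. Between age groups, 0 of 13139 tested genes (0%) passed an adjusted p of 0.05 in the quasi-likelihood F-test of edgeR, p-values being adjusted after Benjamini and Hochberg, the smallest adjusted p was 0.176, and 1129 genes (8.59%) had an unadjusted p under 0.05. DESeq2 called 353 of 14272 genes (2.47%).

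No member of the set passed the adjusted threshold (0 of 6 tested, against 0% of all genes by edgeR). Hsd17b11 had an unadjusted p under 0.05, in the direction of a higher level in older tumors, and no other member did (1 of 6, against 8.59% of all genes in either direction, 5.3% higher and 3.29% lower). The 6 tested log2 fold changes, older over younger, were divided into 3 positive and 3 negative, with a median of 0.05 beside 0.00 for all tested genes. Only 2 of the 6 had age groups that did not overlap, Hsd17b11, higher in every older tumor, and Hsd17b4, lower in every older tumor. Of all tested genes, 6.51% were higher and 5.58% lower in every older tumor. By DESeq2, 0 of the 6 members with an adjusted p passed, with 0.121 as the smallest (Hsd17b11), and the other 4 members had no adjusted p. Gene lengths were not at hand, so levels are compared between tumors for each gene and never between genes.

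**Figure D1:**
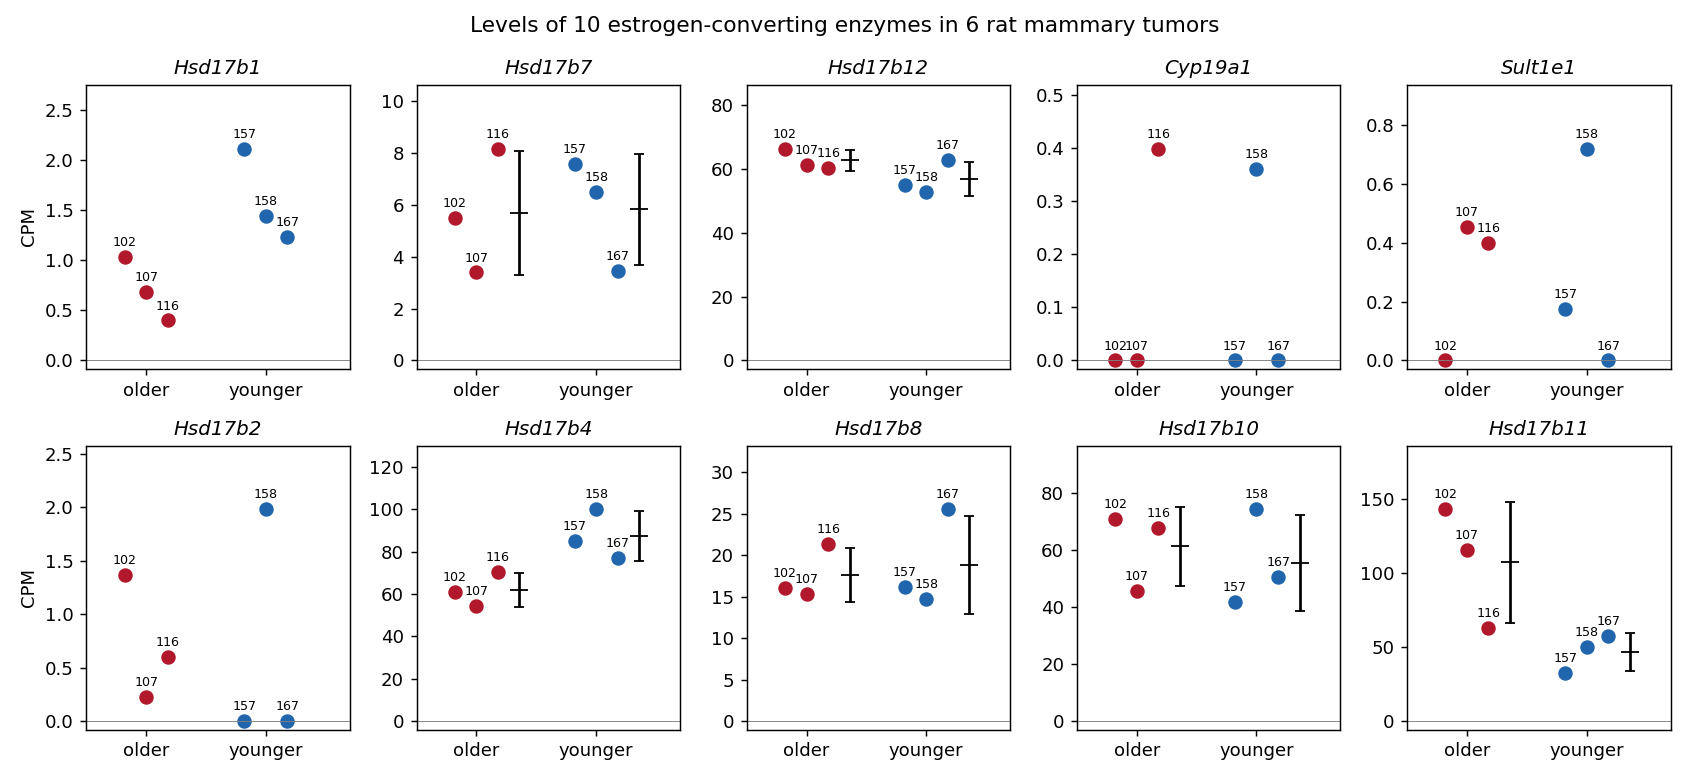
CPM of each of the 10 enzymes (vertical axis, linear, its own scale per gene) in each older (red) and younger (blue) tumor, labelled by tumor number, with horizontal and vertical black bars for the group mean ± SD (n = 3) of the 6 tested genes. Older points lie above younger points for Hsd17b11 and below them for Hsd17b4 and Hsd17b1, and the groups overlap for the other 7 genes.

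Cyp19a1, which encodes aromatase, was at or below the floor in every tumor. It had 2 reads in older tumor 116, 2 reads in younger tumor 158 and 0 reads in the other 4 tumors. Its floor of 3 reads allowed a level of up to 0.528 to 1.03 CPM per tumor, and no fold change is given. Some steps that lead to androgens, the substrates of aromatase, also had few reads. Cyp17a1, the 17α-hydroxylase and lyase of androgen synthesis, had 1 read in all, and Hsd3b1, a 3β-hydroxysteroid dehydrogenase, had 0 reads in the 6 tumors. Cyp11a1, which cleaves the cholesterol side chain, had 0, 13 and 3 reads in older tumors and 5, 2 and 10 reads in younger tumors and did not pass the filter.

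Of 18 rows of the list for androgen and upstream steroid synthesis, 8 were tested and 0 passed the adjusted threshold in edgeR or DESeq2. Their log2 fold changes had a median of -0.09, with 3 positive and 5 negative. The lowest unadjusted p in the list belonged to Fdx1, the ferredoxin that donates electrons to mitochondrial P450 enzymes, at 11.3, 12.7 and 13 CPM in older tumors 102, 107 and 116 and 6.87, 5.04 and 6.14 CPM in younger tumors 157, 158 and 167. The groups did not overlap, and its log2 fold change was 1.03 (SE 0.34, edgeR adjusted p = 0.424). Por, the reductase that supplies electrons to microsomal P450 enzymes including aromatase, was lower in every older tumor, at 54.5, 55.4 and 37.7 CPM against 97.2, 89.7 and 63.4 CPM (log2 fold change -0.76, SE 0.27, edgeR adjusted p = 0.471).

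Among the enzymes that mainly reduce E1 to E2, Hsd17b1, the classical estrogenic member, had 3, 3 and 2 reads in older tumors 102, 107 and 116 and 12, 8 and 5 reads in younger tumors 157, 158 and 167. These counts corresponded to 1.03, 0.679 and 0.399 CPM in older tumors and 2.11, 1.44 and 1.23 CPM in younger tumors. All 3 younger tumors were above all 3 older tumors, the latter at or below the floor. Pooled over tumors, 8 reads in the older group and 25 in the younger group gave an older-to-younger ratio of 0.396, with an exact 95% counting interval of 0.155 to 0.907 that does not include the spread between tumors. When the filter on low counts was not applied, edgeR gave a log2 fold change of -1.24 with an unadjusted p of 0.156 and an adjusted p of 0.785, which did not pass.

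Hsd17b7 encodes an E1 reductase that is also the 3-ketosteroid reductase of cholesterol synthesis. Its levels were 5.48, 3.39 and 8.17 CPM in older tumors 102, 107 and 116 and 7.57, 6.48 and 3.44 CPM in younger tumors 157, 158 and 167. The lowest values were those of 1 tumor of each age group, 107 and 167, and the highest was that of older tumor 116, so the groups overlapped across nearly their whole range. The means were 5.68 ± 2.40 CPM and 5.83 ± 2.14 CPM (SD, n = 3 each), and the log2 fold change was -0.04 (SE 0.50, 95% interval -1.21 to 1.13, edgeR adjusted p = 0.993). On the linear scale this interval ran from 0.431-fold to 2.20-fold, and with 165 reads in all the data bound a difference only that loosely.

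Hsd17b12 encodes the 3-ketoacyl-CoA reductase of very long chain fatty acid elongation and can also reduce E1. It was the steadiest tested member, with 66.5, 61.3 and 60.4 CPM in older tumors and 55.1, 53.0 and 62.9 CPM in younger tumors. Its highest value was 1.26 times its lowest, whereas the median of that ratio was 2.35 over the 13050 tested genes with a count in every tumor. That median was not matched for level, and counting error widens the ratio of genes with few reads. The groups overlapped through tumor 167, and the log2 fold change was 0.14 (SE 0.21, 95% interval -0.35 to 0.63, edgeR adjusted p = 0.932). In the 9 tested genes of the elongation list, 0 passed in edgeR or DESeq2, 2 log2 fold changes were positive and 7 negative, and their median was -0.54. Hacd2, a dehydratase acting in the step after Hsd17b12, had 28.1, 22.2 and 31.5 CPM in older tumors and 58.1, 163 and 44.7 CPM in younger tumors (log2 fold change -1.70, SE 0.50, edgeR adjusted p = 0.365). Its groups did not overlap, nor did those of Hacd3, a second dehydratase (log2 fold change -0.79, edgeR adjusted p = 0.432). The same held for Elovl7, an elongase (log2 fold change -1.37, SE 0.43, edgeR adjusted p = 0.388). In all, 3 of the 9 genes were lower in every older tumor, against 5.58% of all tested genes. Tecr, the reductase that closes the elongation cycle, overlapped between groups (log2 fold change -0.54, SE 0.37, edgeR adjusted p = 0.803).

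Among the enzymes that mainly oxidize, Hsd17b2, which converts E2 to E1 in the endoplasmic reticulum, was detected in few tumors. It had 4, 1 and 3 reads in older tumors and 0, 11 and 0 reads in younger tumors. Every older tumor had a read, and the highest count, 11 reads or 1.98 CPM, was in younger tumor 158. The pooled ratio of 8 to 11 reads was 0.901 with an exact 95% counting interval of 0.315 to 2.46, and all but 1 of the 3 younger tumors had none.

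Hsd17b4 encodes the peroxisomal D-bifunctional protein, which carries the hydratase and dehydrogenase steps of peroxisomal fatty acid β-oxidation and can oxidize E2. It had 61.0, 54.3 and 70.4 CPM in older tumors 102, 107 and 116 and 84.8, 100.0 and 76.9 CPM in younger tumors 157, 158 and 167. Every older tumor was below every younger tumor, with 116 and 167 nearest to each other. The means were 61.9 ± 8.07 CPM and 87.2 ± 11.7 CPM (SD, n = 3 each), a fold of 0.710 (95% interval 0.494 to 1.02). The log2 fold change was -0.49 (SE 0.22, 95% interval -1.02 to 0.03), with an edgeR unadjusted p of 0.0607 and adjusted p of 0.613, so the difference did not pass the test although the groups were separate, as 5.58% of all tested genes were in this direction. The summed epithelial markers were also lower in every older tumor (1450, 1415 and 1541 CPM against 2089, 1826 and 1996 CPM). All 8 markers had a negative log2 fold change. Of these, 3 were lower in every older tumor on their own (5.58% of all tested genes were), and the others overlapped between groups. The part of epithelial cells in the level of Hsd17b4 was not tested. In the 10 tested genes of peroxisomal β-oxidation, 0 passed in edgeR or DESeq2, 8 log2 fold changes were positive and 2 negative, and the median was 0.19, on the other side of 0 from Hsd17b4.

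Hsd17b8 encodes a mitochondrial dehydrogenase that pairs with the product of Cbr4 in mitochondrial fatty acid synthesis and can oxidize E2. It had 16.1, 15.4 and 21.3 CPM in older tumors and 16.2, 14.8 and 25.6 CPM in younger tumors. In each group 1 tumor was higher than the others, 116 and 167, and the ranges overlapped. The log2 fold change was -0.09 (SE 0.33, 95% interval -0.86 to 0.68, edgeR adjusted p = 0.975). Its partner Cbr4 also overlapped between groups (log2 fold change 0.13, SE 0.39, edgeR adjusted p = 0.972). The 7 tested genes of that list had 2 positive and 5 negative values with a median of -0.13, and 0 passed in edgeR or DESeq2.

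Hsd17b10 encodes a mitochondrial dehydrogenase of isoleucine breakdown that also serves as a subunit of mitochondrial RNase P. It had 71.0, 45.5 and 67.6 CPM in older tumors and 41.9, 74.2 and 50.4 CPM in younger tumors, so both the highest and the lowest values were in younger tumors. The log2 fold change was 0.14 (SE 0.31, 95% interval -0.57 to 0.85, edgeR adjusted p = 0.952). Its partners in the complex, Trmt10c, the methyltransferase subunit, and Prorp, the nuclease subunit, had log2 fold changes of 0.10 (SE 0.28, edgeR adjusted p = 0.968) and 0.53 (SE 0.26, edgeR adjusted p = 0.657). Prorp was higher in every older tumor, at 39.8, 35.3 and 39.3 CPM against 23.8, 22.7 and 32.9 CPM, whereas Hsd17b10 and Trmt10c overlapped between groups. Of the 3 tested genes of the RNase P list, 0 passed in edgeR or DESeq2, and their median was 0.10.

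Hsd17b11 encodes a lipid droplet dehydrogenase that oxidizes 17β-hydroxysteroids, androgen metabolites in particular. It had 143, 116 and 63.0 CPM in older tumors 102, 107 and 116 and 32.7, 50.4 and 57.8 CPM in younger tumors 157, 158 and 167. Every older tumor was above every younger tumor, but older tumor 116 was close to younger tumor 167 and well below the other older tumors. The means were 107 ± 40.8 CPM and 47.0 ± 12.9 CPM (SD, n = 3 each), a fold of 2.28 (95% interval 1.27 to 4.12). The log2 fold change was 1.19 (SE 0.36, 95% interval 0.34 to 2.04), with an edgeR unadjusted p of 0.0122 and adjusted p of 0.382, which did not pass. Its highest value was 4.38 times its lowest, the widest spread of the 6 tested members.

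The summed level of 7 macrophage markers, each above the floor in every tumor, was also higher in every older tumor, at 307, 351 and 197 CPM against 152, 113 and 92.9 CPM. Of the 7 markers, 3 were higher in every older tumor on their own (6.51% of all tested genes were), and the others overlapped between groups. The summed level of 5 T cell markers was also higher in every older tumor, at 16.1, 85.8 and 19.9 CPM against 8.63, 4.5 and 6.14 CPM, with 2 to 5 of them above the floor per tumor. Cd8a made up most of that sum in tumors 102 and 107, at 10.3 and 74.2 CPM, and not all 5 markers had separate groups. The sum of 6 B and plasma cell markers was 12.3, 4.53 and 21.9 CPM against 2.29, 4.14 and 1.72 CPM, again higher in every older tumor, with 1 to 2 of them above the floor. Of these markers, Jchain was higher in every older tumor. Cd79a went the other way, with 0, 3 and 4 reads in older tumors and 7, 6 and 5 reads in younger tumors, and did not pass the filter. Adipocytes hold large lipid droplets, and 5 to 8 of 8 adipocyte markers lay above the floor per tumor, with summed levels of 194, 69.0 and 36.7 CPM in older tumors and 39.1, 40.9 and 29.2 CPM in younger tumors, overlapping through tumor 116. The part of these cell types in the level of Hsd17b11 was not tested. Hsd17b13, a paralog and genomic neighbour of Hsd17b11 whose product is also found on lipid droplets, had 20, 15 and 3 reads in older tumors and 3, 4 and 3 reads in younger tumors. It was 1 of 4 further HSD17B genes in the table, with Hsd17b3, Hsd17b6 and Hsd17b14, and 0 of the 4 passed the filter. In the 8 tested genes for lipid droplet proteins, 0 passed in edgeR or DESeq2, 3 log2 fold changes were positive and 5 negative, and the median was -0.35. Among these, Abhd5, the activator of the triglyceride lipase of droplets, had a log2 fold change of -2.18 (SE 0.83, edgeR adjusted p = 0.510) and overlapped between groups. Its levels were 41.8, 21.5 and 15.4 CPM in older tumors and 70.9, 261 and 22.6 CPM in younger tumors, so the difference was carried mostly by tumor 158. Pnpla2, that lipase, had the other sign (log2 fold change 1.36, SE 0.79, edgeR adjusted p = 0.745). It also overlapped between groups, with 501, 83.3 and 71.6 CPM in older tumors and 59.3, 140 and 55.5 CPM in younger tumors.

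**Figure D2:**
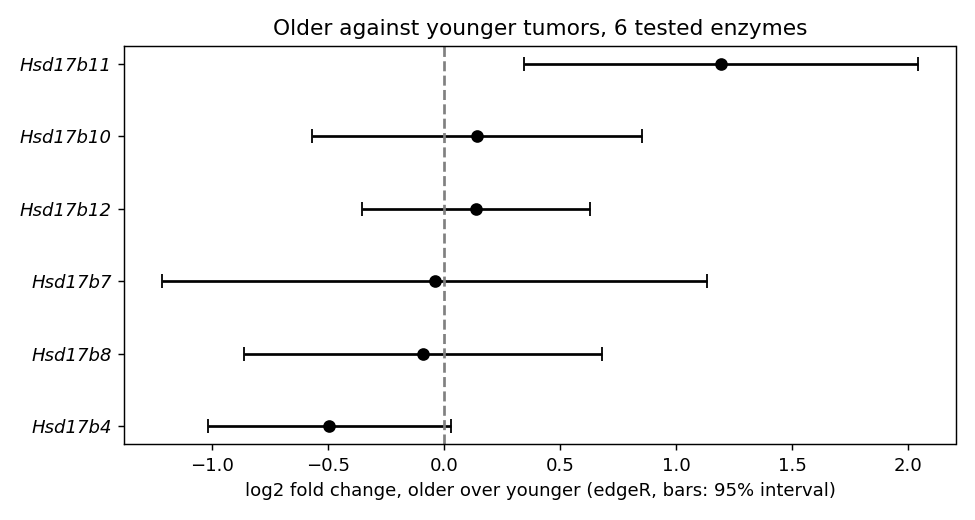
Log2 fold change, older over younger tumors, of the 6 tested enzymes (horizontal axis), with points for the edgeR estimate, bars for its 95% interval and a dashed line at 0. The interval of Hsd17b11 (0.34 to 2.04) lies above 0, that of Hsd17b4 (-1.02 to 0.03) just reaches it, and the other 4 span it.

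Sult1e1, the sulfotransferase that inactivates E2, had 0, 2 and 2 reads in older tumors and 1, 4 and 0 reads in younger tumors. Only tumor 158, at 4 reads or 0.721 CPM, was above the floor of 3 reads. The pooled counts, 4 reads against 5, gave a ratio of 0.991 with an exact 95% counting interval of 0.197 to 4.60, so a difference was not detectable at this depth.

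The remaining genes for estrogen conjugation and transport comprised 15 rows, of which 13 were tested. Of these 13, 0 passed in edgeR and 3 were higher by DESeq2 (Abcg2, Papss2 and Slco2b1, against 1.67% of all genes higher by DESeq2). The list had 8 positive and 5 negative values with a median of 0.12. Abcg2, an efflux pump that carries estrogen sulfates, had 29.1, 46.2 and 3.39 CPM in older tumors and 1.06, 2.88 and 0.737 CPM in younger tumors. Tumor 116 was the lowest of the older tumors, as for Hsd17b11, and lay just above tumor 158 (log2 fold change 4.02, SE 0.98, edgeR adjusted p = 0.315, DESeq2 adjusted p = 0.00113). Papss2 and Papss1 make the sulfate donor that sulfotransferases such as Sult1e1 use. Papss2 had 83.0, 9.50 and 15.8 CPM in older tumors and 4.93, 7.93 and 4.91 CPM in younger tumors, and it was carried mostly by tumor 102 (log2 fold change 2.58, SE 0.81, edgeR adjusted p = 0.391, DESeq2 adjusted p = 0.036). Papss1 overlapped between groups, with a log2 fold change of 0.02 (SE 0.22, edgeR adjusted p = 0.992). Sts, the sulfatase that releases estrogens from their sulfates, was between 1.72 CPM (tumor 167) and 7.88 CPM (tumor 102) and overlapped between groups (log2 fold change 0.36, SE 0.56, edgeR adjusted p = 0.935).

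Genes for the hydroxylation and methylation of estrogens comprised 3 tested genes, with 0 passing in edgeR or DESeq2 and a median of -0.11. For estrogen receptors and their targets, 0 of 14 tested genes passed in edgeR and 3 passed in DESeq2, 1 higher (Igf1r, 1.67% of all genes) and 2 lower (Stc2 and Cited1, 0.806% of all genes). The receptor gene Esr1 had both its lowest level, 4.46 CPM in tumor 102, and its highest, 59.3 CPM in tumor 107, in older tumors, and its log2 fold change was -0.12 (SE 0.75, edgeR adjusted p = 0.983).

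**Figure D3:**
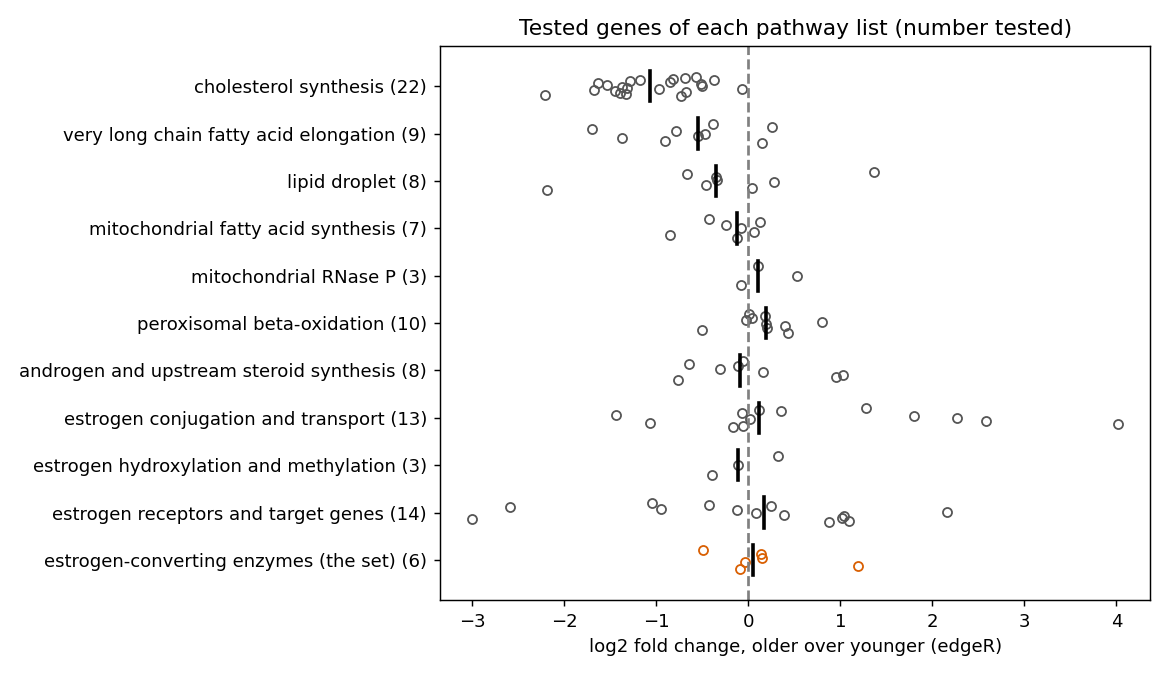
Log2 fold change, older over younger tumors (horizontal axis), of each tested gene in 10 related gene lists (grey circles) and in the enzyme set (orange circles), one list per row with the number tested in brackets, a black bar at each list's median and a dashed line at 0. The 22 genes for cholesterol synthesis all lie below 0 with a median of -1.07, whereas the 6 tested enzymes lie on both sides of 0 with a median of 0.05.

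Hsd17b7 was set beside the other genes of cholesterol synthesis. All 22 other genes of the cholesterol synthesis list were tested, all 22 had a negative log2 fold change (50.4% of all tested genes did), and the median was -1.07. The log2 fold change of Hsd17b7 was -0.04. Groups were separate for 17 of the 22, all lower in older tumors (5.58% of all genes), and 14 had an unadjusted p under 0.05 in the lower direction (3.29% of all genes). By edgeR 0 of 22 passed the adjusted threshold, the smallest adjusted p being 0.263, and by DESeq2 7 of 22 were lower (0.806% of all genes). The difference between Hsd17b7 and the list was not tested. The summed epithelial markers were lower in every older tumor (values above). The summed macrophage and T cell markers, and the B and plasma cell sum that was mostly Jchain in older tumors, were higher in every older tumor. The part of these cell types in the levels of the 22 genes was not tested.

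Msmo1 and Nsdhl encode the enzymes that form, with the product of Hsd17b7, the complex that removes the C4 methyl groups of sterols. Msmo1, the methyl oxidase, had 15.1, 19.9 and 21.5 CPM in older tumors and 53.5, 42.3 and 42.8 CPM in younger tumors (log2 fold change -1.29, SE 0.26, edgeR adjusted p = 0.265, DESeq2 adjusted p = 0.00678). Nsdhl, the decarboxylase, had 23.3, 17.4 and 23.3 CPM in older tumors and 37.3, 29.7 and 36.4 CPM in younger tumors (log2 fold change -0.69, SE 0.26, edgeR adjusted p = 0.501, DESeq2 adjusted p = 0.344). Both were lower in every older tumor, whereas Hsd17b7 had its highest value in an older tumor. Sqle, the squalene epoxidase upstream of these steps, had a log2 fold change of -1.45 (edgeR adjusted p = 0.263).

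Each gene was centred on its own mean log2 CPM over the 6 tumors to compare the patterns. Hsd17b7 was at 0.01, -0.62 and 0.55 in older tumors 102, 107 and 116, where the median of the 22 genes was -0.75, -0.52 and -0.27. In younger tumors 157, 158 and 167, Hsd17b7 was at 0.44, 0.23 and -0.60, and the median of the 22 genes was 0.60, 0.42 and 0.43. The values parted in 3 tumors: in 102 and 116 Hsd17b7 was above all 22 genes, and in 167 it was below all 22. In tumors 107, 157 and 158 Hsd17b7 was on the same side of 0 as the median of the list. The tested genes whose pattern over the 6 tumors was most like that of Hsd17b7, among 10307 genes of at least 10 CPM on average, were Naa10, C1qbp, Rpusd1, Axin1 and Traf4, with Pearson correlations of log2 CPM from 0.973 to 0.989. For the 20 cholesterol synthesis genes of that level the correlations with Hsd17b7 ran from -0.19 to 0.44 with a median of 0.15. These are descriptions over 6 points that share library and depth, and the low counts of Hsd17b7 add error to each point.

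**Figure D4:**
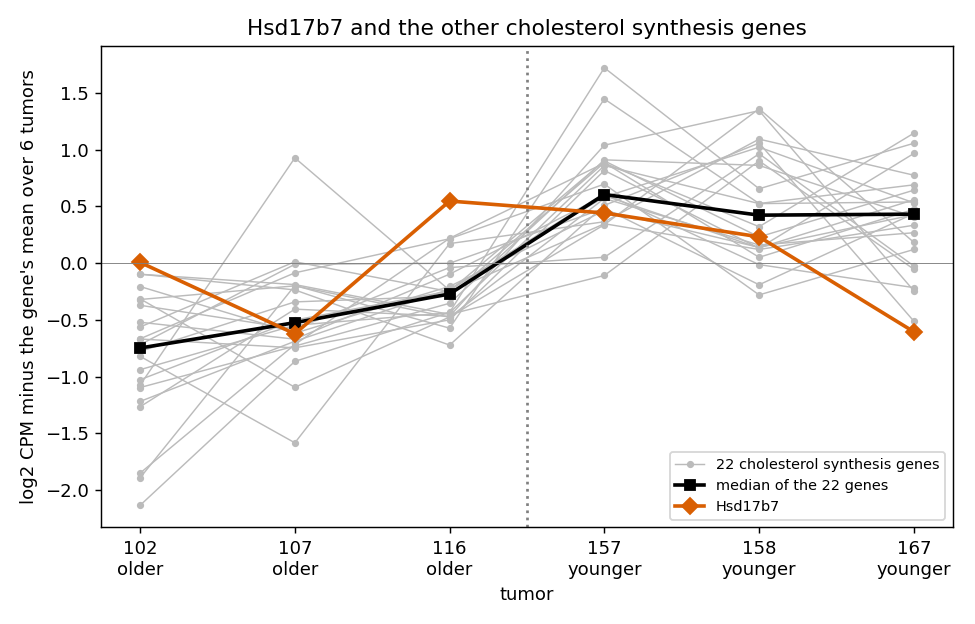
Log2 CPM minus the gene's own mean over the 6 tumors (vertical axis) of Hsd17b7 (orange diamonds), of 22 other cholesterol synthesis genes (grey) and of their median (black squares) in each tumor (horizontal axis, lines only join the points of a gene). Hsd17b7 lies above all 22 in tumors 102 and 116 and below all 22 in tumor 167.

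The promoters of the 3 genes of the C4 demethylation complex are shown because their products work together and the levels of Hsd17b7 differed in order from those of Msmo1 and Nsdhl. The sequences are the 250 bases before the annotated start in RefSeq (GRCr8), read 5′ to 3′ on the strand of the gene, at chr13:84722755-84723004, minus strand for Hsd17b7, chr16:29746863-29747112, plus strand for Msmo1 and chrX:155817110-155817359, plus strand for Nsdhl. Capitals mark CCAAT boxes on either strand (CCAAT, or ATTGG where the box is on the opposite strand).
Hsd17b7: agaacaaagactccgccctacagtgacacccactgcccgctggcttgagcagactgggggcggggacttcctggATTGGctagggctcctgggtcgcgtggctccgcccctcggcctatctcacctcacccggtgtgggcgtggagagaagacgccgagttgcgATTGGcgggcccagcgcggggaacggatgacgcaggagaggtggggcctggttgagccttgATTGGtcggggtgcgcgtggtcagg
Msmo1: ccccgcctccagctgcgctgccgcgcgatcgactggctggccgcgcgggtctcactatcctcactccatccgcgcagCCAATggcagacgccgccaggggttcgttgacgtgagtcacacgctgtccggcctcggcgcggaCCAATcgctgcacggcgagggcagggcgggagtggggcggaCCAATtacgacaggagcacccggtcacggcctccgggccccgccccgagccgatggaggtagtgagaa
Nsdhl: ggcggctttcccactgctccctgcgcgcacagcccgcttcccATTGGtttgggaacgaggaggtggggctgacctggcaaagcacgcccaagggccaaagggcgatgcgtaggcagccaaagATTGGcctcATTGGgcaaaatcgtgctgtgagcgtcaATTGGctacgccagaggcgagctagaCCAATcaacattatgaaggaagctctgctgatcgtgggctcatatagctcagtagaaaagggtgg

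CCAAT boxes, the letters that the factor NF-Y reads, were counted 3 times in the promoter of Hsd17b7, 3 times in that of Msmo1 and 5 times in that of Nsdhl. Of 27457 rat promoters of the same length, 34.3% held at least 1 CCAAT box and 2.73% held 3 or more. The GC box (GGGCGG, either strand), the letters that Sp1 reads, was found 3 times in Hsd17b7, 3 times in Msmo1 and 0 times in Nsdhl (32.4% of all promoters held 1 or more), and 0 CCAAT boxes overlapped a GC box in these sequences. A sterol response element was searched as TCACNCCAC on either strand, which 0.976% of all promoters held, and it was found in 0 of the 7 members and 0 of the 16 cholesterol synthesis genes with an entry in the RefSeq table. The estrogen response element, searched as GGTCA and TGACC parted by any 3 bases, was held by 0.0219% of all promoters and by 0 of the 7 members with an entry. Of these 7 members, 6 held a CCAAT box and 4 a GC box, against 13 and 14 of the 16 cholesterol synthesis genes. In Hsd17b4 there were 0 CCAAT boxes and 2 GC boxes, and in Hsd17b11 there was 1 of each. A match describes letters in this window only, and the lack of a match does not show that a gene lacks such an element. Because so few promoters held either response element as searched, 0 matches among 7 or 16 promoters cannot set these genes apart from the rest.

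Some members share genomic space with other genes in RefSeq. Hsd17b11 overlaps the protein-coding gene Nudt9, Hsd17b4 overlaps a long noncoding RNA, Hsd17b12 overlaps the pseudogene Timm23-ps8 and Cyp19a1 overlaps a long noncoding RNA. The strand setting of the read counting is not given in the sources used here, so reads from these overlaps cannot be assigned to one of the genes with certainty.

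The order of the values was examined under other settings of the fit, which included another normalization, no filter, DESeq2 and leaving out each tumor in turn. The log2 fold change of Hsd17b11 was positive in every one of these fits and lay between 0.92 and 1.46, with adjusted p values from 0.121 to 0.842. The lowest value, 0.92, was without older tumor 102. That of Hsd17b4 stayed negative, from -0.60 to -0.38 when tumors were left out. By contrast, the signs of Hsd17b7, Hsd17b8 and Hsd17b10 turned when 1 tumor was left out.

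**Figure D5:**
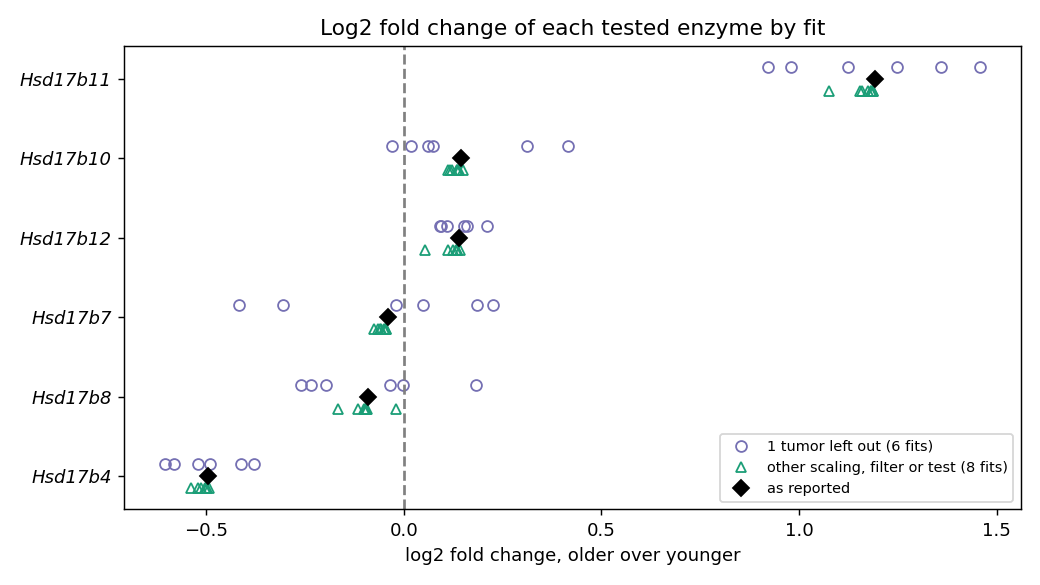
Log2 fold change, older over younger (horizontal axis), of each of the 6 tested enzymes in the reported edgeR fit (black diamonds), in 8 fits with another scaling, filter or test (green triangles) and in 6 fits without 1 tumor (violet circles). All points of Hsd17b11 lie above 0 and all of Hsd17b4 below 0, whereas those of Hsd17b7, Hsd17b8 and Hsd17b10 lie on both sides of the dashed line at 0.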

How the data were processed

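Bulk RNA of 6 tumors (3 older, 3 younger) was sequenced by the authors. Per the series' design text, FastQC 0.11.7, Trimmomatic 0.38, STAR 2.7.9a, Picard 2.18.12 and HTSeq 0.13.5 were used, and the submitters' processing notes name build mRatBN7.2. The labels name polyA selection and 100-base reads, whereas the protocol describes rRNA depletion and 150-base reads. The authors deposited raw counts per gene in 1 table of 30562 rows and 6 columns.

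The 4367 rows without a gene name (2.17% to 3.64% of counts) were left out of library sizes and tests, leaving 3394451 to 6383983 counts per tumor. Genes passing filterByExpr in edgeR (minimum count 10, total 15; 13139 genes) were tested by quasi-likelihood F-test, older against younger, after TMM scaling (factors 0.859 to 1.13), with Benjamini-Hochberg adjustment over all tested genes and a threshold of 0.05. Standard errors are the estimate divided by the square root of F. Counting intervals and floors (3 counts) cover counting error only. Promoters came from RefSeq (GRCr8), a different build from that of the files, in which 7 of the 10 members and 16 of 22 cholesterol synthesis genes had an entry.

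All members are described. Other genes are named by the 4 lowest p of their list, as partners of a member's reaction, as Esr1, Esr2, Pgr or Greb1 (of which Esr1 is given), or as the 5 most alike in pattern to Hsd17b7. Hsd17b13 and Cd79a fall outside this rule and were chosen after their values were seen. Members and lists were chosen with earlier results of these data known. R 4.3.3, edgeR 4.0.16, limma 3.58.1, DESeq2 1.42.0 and Python 3.11.15 were used.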

Additional observations from a re-analysis of the deposited data

How the results depend on the processing

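Under DESeq2, 353 genes passed the threshold where edgeR called 0, of which 13 stood in the related gene lists, while 0 of the members that had an adjusted p (6 of 10 in DESeq2) passed under any setting tried. Leaving out each tumor in turn gave 0 to 0 genes past the threshold by edgeR, among all genes, members and lists alike. Of 84 recomputed fold changes of tested members, 79 kept their sign and 5 did not. Leaving out 1 tumor gave values from -0.42 to 0.23 for Hsd17b7, from -0.26 to 0.18 for Hsd17b8 and from -0.031 to 0.42 for Hsd17b10. Those of the other sign were as follows: Hsd17b7 was at 0.23 without older tumor 107, 0.18 without younger tumor 157 and 0.05 without younger tumor 158, Hsd17b8 at 0.18 without younger tumor 167 and Hsd17b10 at -0.031 without younger tumor 157. The cause was not tested. Keeping the unnamed rows, a setting chosen after seeing the data, gave 0 calls by edgeR. The median of the cholesterol synthesis list ranged from -1.22 to -0.96. A setting that uses gene lengths was not run, as no lengths were at hand. No paired analysis was possible because no replicate number occurs in both age groups. With 3 tumors a group and 3508571 to 6525830 reads each, Hsd17b1, Hsd17b2, Cyp19a1 and Sult1e1 did not pass the filter on low counts.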
